A study of Mus musculus with 5 samples.

Results

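Genes of T helper cell cytokines and of their receptors were examined in ChIP-Seq summit lists from WT Th9 cells. The set was a named list of 38 genes, 20 encoding cytokines and 18 encoding receptor chains, out of 21938 protein-coding genes on the assembled chromosomes (GENCODE M21, mm10). All 38 were found in the annotation, and members whose windows overlap form 29 separate loci. For each gene, every summit that lay in the gene body or within 50 kb of its ends was taken from the summit lists of 5 libraries. They are PU.1, BATF, the Input and the control precipitations with goat Ig and with rabbit Ig, with 1 library each. A summit is the base at which the peak caller placed the top of a pile of fragments. Input is sheared chromatin sequenced without an antibody, and the Ig libraries were precipitated with control immunoglobulin. Rabbit was the host of both factor antibodies.

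All 5 libraries came from the same culture condition. Naive CD4 T cells of wild-type C57/Bl6j mice aged 7 weeks, taken from spleen and nodes, were stimulated on plates coated with CD3/CD28 antibodies. They received IL-4 (20 ng/ml), TGF-β (2 ng/ml) and an antibody that blocks IFNγ, for a time that the labels give only as some hours and the study as a day. There was no untreated, knockout or Th2 group among these libraries, and no library had a replicate. Counts are therefore described without tests, and their exact (Clopper-Pearson) 95% intervals cover counting error only. The intervals treat members as independent, although members with overlapping windows can share a summit or an empty stretch. The lists name only places above the threshold of the peak caller, and the depth of each library is unknown. A gene without a summit may thus still carry read signal. The lists contain no expression values, so the labelled cell type could not be checked against marker genes.

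Helper T cells are sorted into types by the cytokines they release: IFNγ for Th1, IL-4, IL-5 and IL-13 for Th2, IL-17 for Th17 and IL-9 for Th9 cells. PU.1 is an ETS family transcription factor that binds a GGAA core and is known for its role in IL-9 production. BATF is a basic leucine zipper protein that pairs with JUN proteins on AP-1 sites. Both can join IRF4 or IRF8 on composite sites, PU.1 on ETS-IRF and BATF on AP-1-IRF elements. Many cytokine genes lie in clusters whose distal enhancers act on several neighbours, and for this reason flanks of 50 kb were searched.

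A PU.1 summit was found at 20 of the 38 genes (52.6%, 95% interval 35.8 to 69.0%), against 39.4% of all protein-coding genes. A BATF summit was found at 14 (36.8%, 21.8 to 54.0%), against 24.4%. Input summits showed a difference in the same direction, with 23 members (60.5%, 43.4 to 76.0%) against 53.9%. No member had a goat Ig or rabbit Ig summit, against 0.711% and 0.766% of all genes. Of the factor intervals, both include the share of all genes. A fixed list of 73 other cytokine and receptor genes, such as *Il15*, *Il33* and *Csf2rb*, had a PU.1 summit at 36 genes (49.3%), a BATF summit at 17 (23.3%) and an Input summit at 46 (63.0%).

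**Figure D1:**
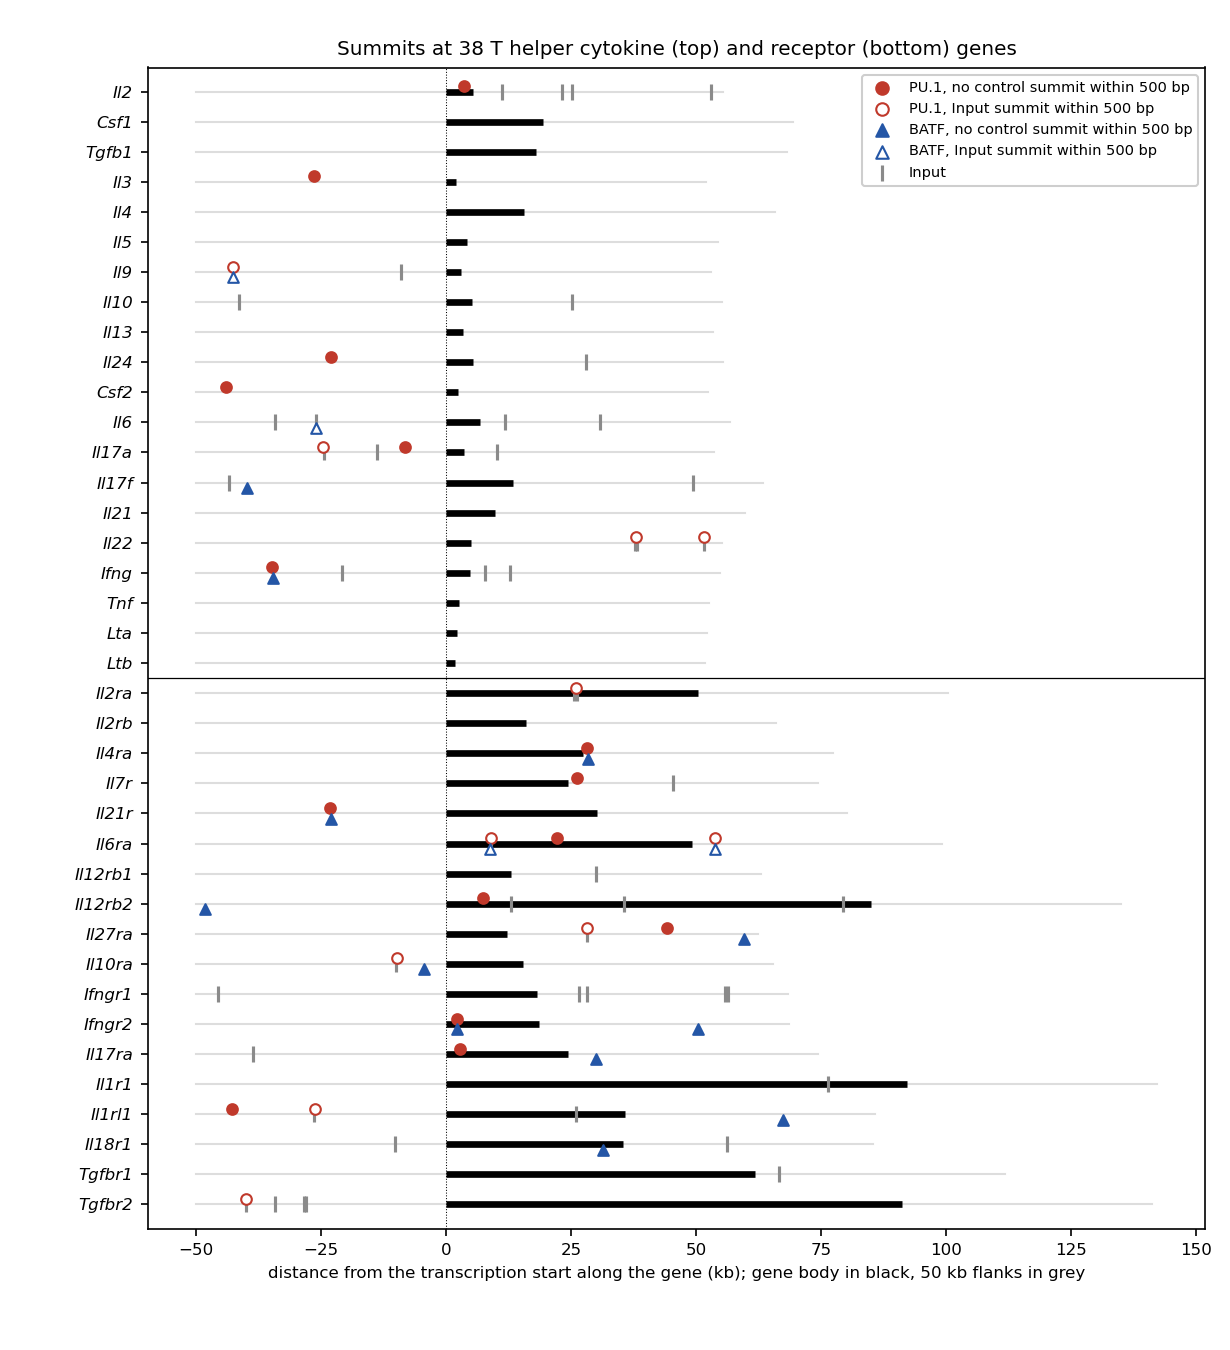
Summits around the 38 member genes, by distance in kb from the transcription start along each gene (x axis), with gene bodies in black and flanks in grey. Circles mark PU.1, triangles BATF and grey ticks Input summits, and open symbols mark the 15 factor summits with an Input summit within 500 bp. No symbol stands at *Il4*, *Il5*, *Il13*, *Il21*, *Tnf*, *Lta* or *Ltb*, and most symbols stand far from the transcription start.

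Both factors had a summit at 11 members: *Il9*, *Ifng*, *Il4ra*, *Il6ra*, *Il10ra*, *Il12rb2*, *Il17ra*, *Il1rl1*, *Il21r*, *Il27ra* and *Ifngr2*. This is 28.9% of the members (15.4 to 45.9%), against 16.8% of all genes, and *Il4ra* and *Il21r* share their summits. Only PU.1 had a summit at 9 members (23.7%, against 22.6% of all genes), namely *Il2*, *Il3*, *Il17a*, *Il22*, *Il24*, *Csf2*, *Il2ra*, *Il7r* and *Tgfbr2*. Only BATF had a summit at 3 (7.89%, against 7.62%), namely *Il6*, *Il17f* and *Il18r1*. The other 15 members (39.5%, 24.0 to 56.6%, against 52.9% of all genes) had neither. Of these, *Il10*, *Il12rb1*, *Il1r1*, *Tgfbr1* and *Ifngr1* had Input summits, and 10 had no summit of any library (26.3%, against 27.7% of all genes): *Il4*, *Il5*, *Il13*, *Il21*, *Tnf*, *Lta*, *Ltb*, *Csf1*, *Tgfb1* and *Il2rb*.

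Summits close to a control summit were set apart. Neighbouring members share summits, and the windows held 38 distinct factor summits, 24 of PU.1 and 14 of BATF. For 15 of them an Input summit stood within 500 bp, at most 260 bp away and with a median distance of 83 bp. Among the other 23 the closest Input summit was 3547 bp away, so that no summit fell near the limit. No factor summit lay near an Ig summit, the closest being 72848 bp away for goat Ig and 226157 bp for rabbit Ig. The share near Input was 45.8% for PU.1 (11 of 24, 25.6 to 67.2%), against 31.3% of the whole PU.1 list. For BATF it was 28.6% (4 of 14, 8.39 to 58.1%), against 31.5%.

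With those summits left out, 15 members kept a PU.1 summit (39.5%, 24.0 to 56.6%), against 31.7% of all genes. For BATF 11 remained (28.9%, 15.4 to 45.9%), against 19.4%. The members *Il6*, *Il9*, *Il22*, *Il2ra* and *Tgfbr2* (13.2%) had factor summits only beside Input summits, and 18 members (47.4%) had at least 1 away from them. For these counts no share of all genes was computed, so they are not set against other genes. The plot of shares by library and rule shows that the members' intervals include the share of all genes in each row plotted. This was not so in every window tried. When all summits were counted, also those beside Input, the PU.1 interval lay above the share of all genes with windows of 50 kb around the transcription start alone. So did the BATF interval with flanks of 100 kb (38.3 to 71.4%, against 37.1%), but not the PU.1 interval (51.3 to 82.5%, against 57.9%). With summits near controls left out, both intervals included the share of all genes. They were 24.0 to 56.6%, against 24.9%, for PU.1 (50 kb around the start) and 28.6 to 61.7%, against 29.8%, for BATF (100 kb flanks). Input with flanks of 100 kb was at 71.1% (54.1 to 84.6%), against 72.0%.

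**Figure D2:**
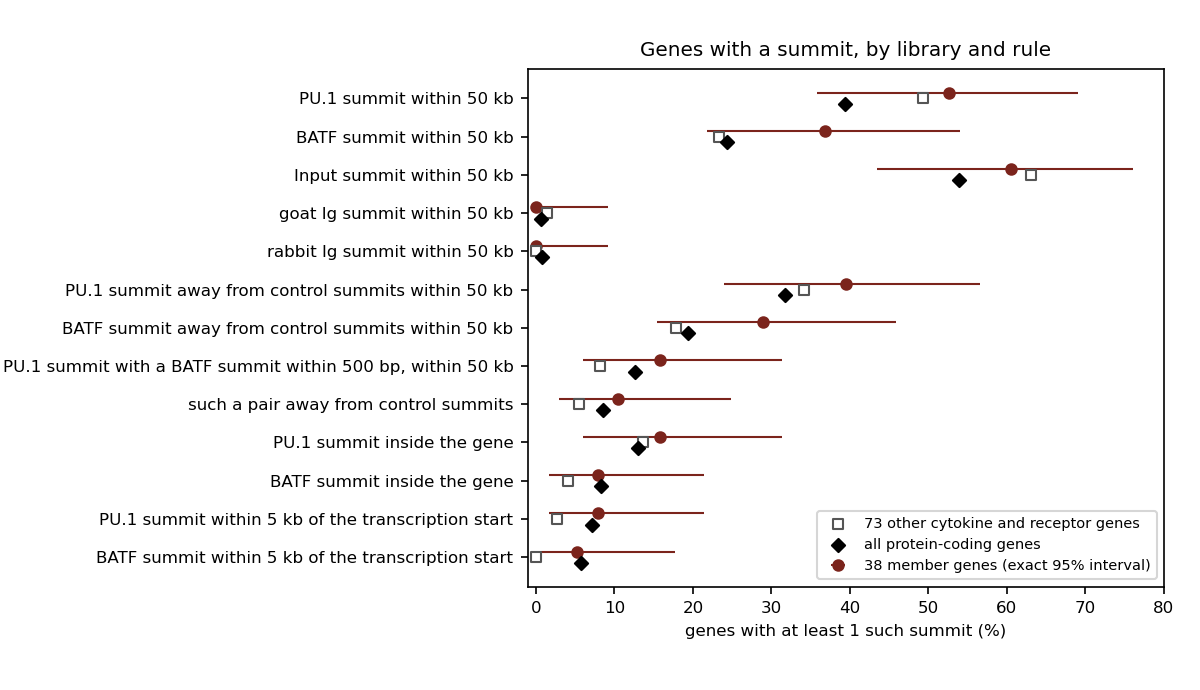
Percent of genes with at least 1 summit (x axis) for each library and counting rule (rows). Filled circles with bars show the 38 members with exact 95% intervals, squares the 73 other cytokine and receptor genes and diamonds all 21938 protein-coding genes. Each bar spans the diamond of its row.

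Summits of PU.1 and BATF within 500 bp of each other were found at 6 members (15.8%, 6.02 to 31.3%), against 12.6% of all genes. For 4 of them, *Ifng*, *Il4ra*, *Il21r* and *Ifngr2*, the pair lay away from every control summit (10.5%, 2.94 to 24.8%, against 8.51%). The other members with a pair, *Il9* and *Il6ra*, had it beside an Input summit. The sequences of the 3 pairs away from Input are shown first, since both factors have a summit there. They are on the plus strand of GRCm38, with the 5 bases centred on each summit in capitals.

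The first pair belongs to *Il4ra* (ENSMUSG00000030748.9), the receptor chain for IL-4, and to *Il21r* (ENSMUSG00000030745.9), the receptor of IL-21. These genes are neighbours on chromosome 7, at 125552120 to 125579474 and 125603429 to 125633570, both on the plus strand. The PU.1 summit (position 125580358, score 3.99) and the BATF summit (125580429, score 5.80) lay 71 bp apart between the genes. They stood 884 and 955 bp past the end of *Il4ra* and 23071 and 23000 bp upstream of the *Il21r* start. The nearest Input summit was 245113 bp away from the BATF summit. The score of a summit was taken to be the −log10 q-value of its peak in that library, so that higher is stronger.
Il4ra and Il21r, chr7:125580318-125580469: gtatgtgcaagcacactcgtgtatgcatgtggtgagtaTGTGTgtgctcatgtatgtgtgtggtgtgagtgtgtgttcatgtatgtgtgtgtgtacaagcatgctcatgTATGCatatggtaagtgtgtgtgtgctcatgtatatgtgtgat
The capitals stand in TG-rich sequence, and 82.9% of the region is masked as repeat in the reference.

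The second pair lay in an intron of *Ifngr2* (ENSMUSG00000022965.8, chromosome 16, 91547072 to 91565623, plus strand), the signalling chain of the IFNγ receptor. The PU.1 summit (position 91549386, score 3.15) and the BATF summit (91549316, score 4.05) were 70 bp apart, 2314 and 2244 bp after the transcription start. No other factor summit was closer to the start of its own member gene. The nearest Input summit was 86819 bp from the BATF summit.
Ifngr2, chr16:91549276-91549426: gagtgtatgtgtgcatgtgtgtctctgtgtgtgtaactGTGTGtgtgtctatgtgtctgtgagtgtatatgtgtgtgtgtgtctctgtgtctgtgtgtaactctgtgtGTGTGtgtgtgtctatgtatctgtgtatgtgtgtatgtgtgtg
Here 75.8% of the bases equalled the base 60 positions before them, and all of the sequence is masked.

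The third pair lay 34706 bp (PU.1, position 118406340, score 2.90) and 34600 bp (BATF, position 118406446, score 4.37) upstream of *Ifng* (ENSMUSG00000055170.4, chromosome 10, 118441046 to 118445892, plus strand), the Th1 cytokine gene. The summits were 106 bp apart in intergenic sequence, and the nearest Input summit was 13812 bp away from the BATF summit. *Ifng* is also the protein-coding gene whose start is nearest to both.
Ifng, chr10:118406300-118406486: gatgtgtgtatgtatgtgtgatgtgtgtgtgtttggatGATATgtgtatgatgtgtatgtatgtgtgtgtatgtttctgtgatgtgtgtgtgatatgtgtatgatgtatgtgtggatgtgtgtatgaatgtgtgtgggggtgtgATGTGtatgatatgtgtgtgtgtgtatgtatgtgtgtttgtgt
This region too was fully masked and 61.6% of its bases equalled the base 2 positions before. All 3 pairs thus lay on TG-rich repeats, without a match to the motifs of PU.1, AP-1 or their composites. Their PU.1 scores were above 47.2% (*Il4ra* and *Il21r*), 25.4% (*Ifngr2*) and 18.1% (*Ifng*) of the PU.1 list. In the same order, their BATF scores were above 69.2%, 38.2% and 43.6% of the BATF list.

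**Figure D3:**
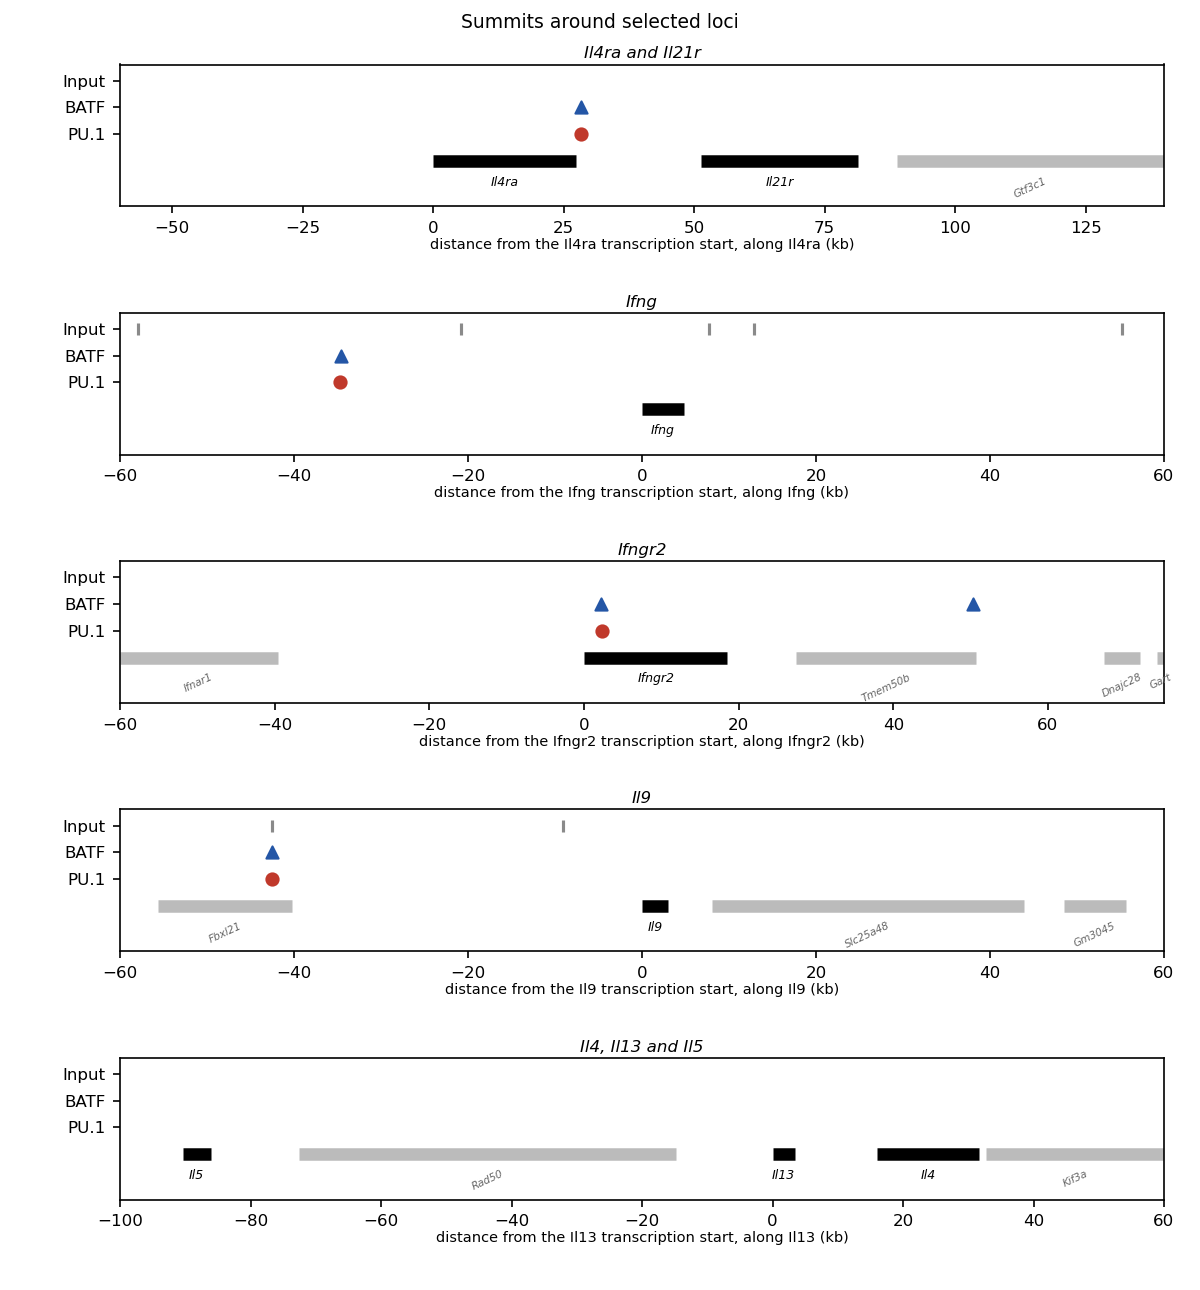
Summits of PU.1 (circles), BATF (triangles) and Input (ticks) around 5 loci, by distance in kb from a transcription start (x axis), with members in black and other protein-coding genes in grey. Pairs of PU.1 and BATF stand at *Il4ra*-*Il21r*, *Ifng* and *Ifngr2* without an Input tick, at *Il9* with one, and the *Il4*-*Il13*-*Il5* locus is empty.

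Among the 8 Th2 and Th9 cytokine genes, PU.1 had summits at 4 (50%), BATF at 1 (12.5%) and Input at 3 (37.5%). The shares of all genes were 39.4%, 24.4% and 53.9%, and the PU.1 count includes *Il3* and *Csf2*, which share a summit. *Il9* (ENSMUSG00000021538.3, chromosome 13, 56479277 to 56482246, minus strand) encodes the cytokine that names Th9 cells. Its PU.1 and BATF summits were 31 bp apart in an intron of *Fbxl21*, whose start was closer (2359 and 2328 bp) than that of *Il9*. Input summits stood within 101 bp of both summits. The PU.1 score of 7.02 was above 88.6% of the PU.1 list, and the BATF score of 3.91 was above 32.5% of the BATF list. The sequence is shown as the contrast to the pairs without Input.
Il9, chr13:56524760-56524871: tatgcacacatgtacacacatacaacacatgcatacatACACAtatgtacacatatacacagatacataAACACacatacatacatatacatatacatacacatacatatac
It is a run of CA-rich repeats, 42554 bp upstream of the gene at the BATF summit, and 66.7% of its bases equalled the base 10 positions before.

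The Th2 cytokine genes *Il4* (ENSMUSG00000000869.12), *Il13* (ENSMUSG00000020383.1) and *Il5* (ENSMUSG00000036117.2) share a locus on chromosome 11. Their joined windows span 222 kb (53552982 to 53775106) and include *Rad50*, whose 3′ part carries the control region of this locus. No summit of any library fell there. Of all genes, 27.7% had no summit in their own window, but those windows are shorter, with a median of 117 kb. From the *Il4* start, the closest summits of PU.1 and BATF were 267808 and 268004 bp away. From the *Il5* start these distances were 261697 and 370129 bp, and from *Il13* 283841 and 284037 bp. *Il10*, encoding a cytokine that dampens inflammation, had Input summits only, and its nearest BATF summit was 77781 bp away.

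*Il3* and *Csf2*, which encode the growth factors IL-3 and GM-CSF, are neighbours on chromosome 11 and shared 1 PU.1 summit. It stood at position 54293574, 26297 bp upstream of *Il3* and 43907 bp upstream of *Csf2*, and the start of *Acsl6* was closer (10224 bp). Its score of 6.30, above 84.6% of the PU.1 list, was the highest of the PU.1 summits at members away from Input. The nearest Input summit was 152946 bp away.
Il3 and Csf2, chr11:54293514-54293634: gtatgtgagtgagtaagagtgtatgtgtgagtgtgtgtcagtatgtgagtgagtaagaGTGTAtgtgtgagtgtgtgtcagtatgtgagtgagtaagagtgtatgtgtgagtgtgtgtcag
Each base of this window equalled the base 40 positions before it, so that the window is a unit of 40 bases in 3 copies.

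*Il24*, a member of the IL-10 family, had a PU.1 summit at position 130910426 of chromosome 1 (score 4.13). It lay 22972 bp upstream of *Il24*, in an intron of *Il20* and 1025 bp from the *Il20* start. The nearest Input summit was 45633 bp away, and none of the surrounding 200 bp was masked. The region was chosen for display after its values were seen, as was that of *Il2*.
Il24, chr1:130910366-130910486: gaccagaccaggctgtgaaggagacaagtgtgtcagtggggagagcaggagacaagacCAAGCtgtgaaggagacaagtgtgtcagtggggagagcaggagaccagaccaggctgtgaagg
At a distance of 50 bases, 94.4% of the bases were equal, so that this unmasked window also holds a tandem repeat.

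Of the 4 Th1 and lymphotoxin genes, only *Ifng* had a factor summit, while 52.9% of all genes had a summit of neither factor. *Tnf*, *Lta* and *Ltb*, encoding TNF and the lymphotoxin chains, lie side by side on chromosome 17 in a joined window of 111 kb without a summit of any library. Their nearest PU.1 summits were 340393 to 351305 bp away and their nearest BATF summits 456009 to 466921 bp.

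Of the 5 Th17 and follicular helper cytokine genes, PU.1 had summits at 2 (40%), BATF at 2 (40%) and Input at 4 (80%). The shares of all genes were 39.4%, 24.4% and 53.9%. *Il17a* had PU.1 summits 24569 bp upstream (position 20706336 of chromosome 1, score 4.58) and 8250 bp upstream (20722655, score 4.62). The first had an Input summit at 158 bp, whereas the second was 5566 bp from one. *Il17f*, its neighbour, had a BATF summit 39724 bp upstream (20830341, score 5.22), which was closer to the start of *Mcm3* (10029 bp) and 3547 bp from an Input summit. *Il22*, which acts on epithelial cells, had PU.1 summits 38094 and 51544 bp downstream of its start, with Input summits at 86 and 83 bp. *Il6* had a BATF summit 25997 bp upstream with an Input summit at 89 bp. *Il21* (ENSMUSG00000027718.8, chromosome 3, 37222759 to 37232636, minus strand), the cytokine of follicular helper cells that Th9 cells also make, had no summit of any library. Its nearest PU.1 summit, 110212 bp away, was the one in *Il2*, and its nearest BATF summit was 163292 bp away. The study reported PU.1 and BATF at a conserved stretch (CNS1) of the *Il9* and *Il21* promoters. It did so by ChIP-Seq and by conventional ChIP. In the lists used here, the PU.1 and BATF summits nearest to the *Il9* start were 42585 and 42554 bp away. Read signal below the caller's threshold would not be listed.

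Of the growth and regulatory cytokines *Il2*, *Csf1* and *Tgfb1*, only *Il2*, the T cell growth factor, had a factor summit (52.9% of all genes had none). PU.1 stood in an intron of *Il2* at position 37122424 of chromosome 3 (score 4.26), 3535 bp after the start, with the nearest Input summit 7733 bp away. The same score occurs at 965 PU.1 summits, since many scores in that list are tied.
Il2, chr3:37122364-37122484: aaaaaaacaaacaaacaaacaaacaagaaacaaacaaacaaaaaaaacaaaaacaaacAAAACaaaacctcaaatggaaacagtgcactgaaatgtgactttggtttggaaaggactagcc
The capitals stand at the end of an A-rich stretch with repeated CAAA, beyond which the sequence is not masked. The nearest PU.1 summits to *Csf1* and *Tgfb1* were 186352 and 350535 bp away.

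Among the 18 receptor genes, PU.1 had summits at 12 (66.7%), BATF at 10 (55.6%) and Input at 14 (77.8%). Among the 20 cytokine genes these numbers were 8 (40%), 4 (20%) and 9 (45.0%). Of all genes, 39.4% had a PU.1, 24.4% a BATF and 53.9% an Input summit. The receptor windows were longer, with a median of 129 kb against 105 kb, and the Input share moved the same way. With windows of 50 kb to either side of the start whatever the gene length, PU.1 was found at 12 receptors and 8 cytokines and BATF at 8 and 4. In these windows the PU.1 share of all members was 52.6% (35.8 to 69.0%), against 31.3% of all genes, so that the interval lay above the latter. BATF was at 31.6% (17.5 to 48.7%), against 19.1%, and Input at 55.3% (38.3 to 71.4%), against 44.7%. Per merged length, the receptors had 6.45 PU.1 and 4.30 BATF summits per Mb and the cytokines 5.32 and 2.36, while Input was at 11.2 and 13.6 per Mb.

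Of the 5 receptors of the common γ chain family, *Il2rb* alone had no factor summit. Of all genes, 52.9% had a summit of neither factor, and *Il4ra* and *Il21r* share their summits. *Il2ra*, the α chain of the IL-2 receptor, had a PU.1 summit in an intron 26001 bp after the start (position 11668808 of chromosome 2, score 3.37), with an Input summit at 260 bp. *Il7r*, needed for the survival of naive T cells, had a PU.1 summit 1754 bp past the end of the gene (position 9504034 of chromosome 15, score 5.06), 19271 bp from the nearest Input summit.

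In the IL-6 and IL-12 receptor family, *Il6ra* held the most factor summits of any member, 3 of PU.1 and 2 of BATF. PU.1 and BATF were 31 bp apart at 4653 bp past the gene end (positions 89859406 and 89859437 of chromosome 3, scores 4.86 and 2.44). In an intron they were 65 bp apart (89904229 and 89904294, scores 3.19 and 3.12). Both pairs had Input summits within 115 bp. The PU.1 summit at 89890941 (score 4.26), also intronic, was 13238 bp from Input. *Il12rb2*, the receptor chain that Th1 cells keep, had an intronic PU.1 summit (67368690 of chromosome 6) and a BATF summit in *Il23r* (67424366), 48178 bp upstream. Their scores of 2.25 and 1.41 were above only 5.30% and 0.0753% of their lists.

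*Il27ra*, the IL-27 receptor, had PU.1 summits 44130 bp after its start in an exon of *Samd1* (83998459 of chromosome 8, score 2.65) and at 28224 bp (84014365, score 2.90), the latter 54 bp from Input. Its BATF summit lay in an intron of *Prkaca* (83983057, score 2.86), 31362 bp from Input. *Il12rb1* had Input only.

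In the IL-1 receptor family, *Il1rl1*, which encodes the IL-33 receptor ST2, and *Il18r1*, encoding the IL-18 receptor, are neighbours and shared a BATF summit in an intron of *Il18r1*. It lay away from Input, and its score of 6.81, above 78.7% of the BATF list, was the highest of BATF at the members. *Il1rl1* also had PU.1 summits 42739 and 26125 bp upstream, both with a score of 3.19, and the second had Input at 204 bp. *Il1r1* had Input only.

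Of the IFNγ and IL-10 receptor genes, *Il10ra* had the PU.1 summit with the highest score of any member, 7.91, above 91.7% of the PU.1 list (position 45279011 of chromosome 9, 9862 bp upstream). An Input summit lay 80 bp from it. A BATF summit (45273557, score 4.37) stood 4408 bp upstream of *Il10ra* and 5534 bp from Input. *Ifngr2* had, besides its pair, a BATF summit 50361 bp after the start (91597433, score 6.28), in an intron of *Tmem50b* and 367 bp from the *Tmem50b* start. *Ifngr1* had 5 Input summits and no factor summit, with the nearest PU.1 and BATF summits 54880 and 62399 bp from its start.

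*Tgfbr2*, the ligand-binding receptor of TGF-β, had a PU.1 summit 40006 bp upstream (position 116215366 of chromosome 9, score 4.13), 13 bp from an Input summit with a score of 10.6. *Tgfbr1* had Input only. *Il17ra*, the IL-17 receptor, had an intronic PU.1 summit 2889 bp after the start (120466136 of chromosome 6, score 3.15). Its BATF summit (120493290, score 5.76) lay in an exon of *Tmem121b*, 517 bp from the start of that gene.

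Most factor summits lay away from the promoters and bodies of the members. PU.1 was inside the gene at 6 members (15.8%, against 13.0% of all genes) and BATF at 3 (7.89%, against 8.33%). Within 5 kb of the start, PU.1 was found at *Il2*, *Il17ra* and *Ifngr2* (7.89%, against 7.09%) and BATF at *Il10ra* and *Ifngr2* (5.26%, against 5.76%). None of the factor summits at the members lay within 1000 bp upstream of a transcription start. By annotation, 14 PU.1 summits were intergenic, 9 intronic and 1 exonic, and 6 BATF summits were intergenic, 7 intronic and 1 exonic. A member was the protein-coding gene with the nearest start for 16 of 24 PU.1 and 7 of 14 BATF summits. The windows were drawn around the members, and no such share was computed for other genes.

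Repeat sequence was common at the member summits, as it was in the whole lists. The repeat and motif shares that follow are given without intervals and were not tested. They count summits, which are not all separate sites. At the members, 6 PU.1 summits each had a BATF summit 31 to 106 bp away, so that their windows of 200 bp overlap. A repeat under such a pair was counted for both factors. In the 200 bp around a summit, over 50% of the bases were masked as repeat at 34 of the 38 factor summits, and all bases at 23. For PU.1 this was 91.7% of the member summits against 83.5% of the list, for BATF 85.7% against 67.9% and for Input 95.9% against 96.1%. When the same windows are cut into adjoining pieces of 200 bp, 22.8% of the 20069 pieces are masked over more than 50%. The masked share was thus higher at the summits of all 3 libraries than in the sequence around them.

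Tandem repeats were counted as windows in which over 60% of the bases equalled the base at some fixed distance of 1 to 100 bp before them, a measure chosen after the sequences were seen. They made up 15 of the 24 PU.1 summits (62.5%, against 41.5% of the list) and 10 of the 14 BATF summits (71.4%, against 42.7%). The 6 PU.1 and 6 BATF summits in pairs with overlapping windows were all among them, so these counts are not of separate repeats. Among the Input summits at the members tandem repeats made up 11 of 49 (22.4%, against 12.8% of the list), and among the 200-bp pieces 1.80%. Runs of at least 6 TG repeats stood at 29.2% (PU.1), 28.6% (BATF) and 4.08% (Input) of the members' summits, against 3.63% of the pieces. In the whole lists these runs stood at 10.1%, 12.6% and 1.32%.

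Only 8 of the 38 factor summits were neither a tandem repeat nor beside an Input summit. For PU.1 this was 4 of 24 (16.7%, against 42.0% of the list) and for BATF 4 of 14 (28.6%, against 45.0%). They were the PU.1 summits of *Il2*, *Il7r*, *Il12rb2* and *Il27ra* and the BATF summits of *Il10ra*, *Il12rb2*, *Il17ra* and *Ifngr2*. The last 2 of BATF and the PU.1 summit of *Il27ra* lay in windows of 79.0 to 80% GC, within 787 bp of the starts of *Tmem121b*, *Tmem50b* and *Samd1*, genes outside the set. The windows of the other 5 were mostly masked as repeat. The masked share was 58.5% at *Il2* and 56.0% at the PU.1 summit of *Il12rb2*. It was 100% at *Il7r*, at *Il10ra* and at the BATF summit of *Il12rb2*. The part of repeats or alignment in these counts was not tested.

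Binding motifs were searched as fixed letters on both strands in the same 200 bp. The PU.1 string GAGGAAGT, the AP-1 strings TGACTCA and TGAGTCA, the ETS-IRF string (GGAA, any 2 bases, GAAA), the IRF string (GAAA, any 2 bases, GAAA) and AP-1-IRF composites were found at none of the 24 PU.1 summits and none of the 14 BATF summits. In the whole lists, AP-1 was found at 0.52% (PU.1 list) and 0.427% (BATF list) and the PU.1 string at 0.565% and 0.552%. Among the 200-bp pieces of the members' windows, AP-1 was found in 3.52% and the PU.1 string in 1.41%. The ETS-IRF string was found at 2.69% and 1.36% of the summits in the lists and in 2.16% of the pieces, and the IRF string at 6.32% and 3.39% and in 2.68% of the pieces. A degenerate motif that the study derived from IRF8 peaks was found at 45.8% of PU.1 and 50% of BATF summits at the members. It stood at 33.9% and 32.2% of the lists, at 14.3% of the members' Input summits and in 6.32% of the pieces. TG repeats satisfy this motif, as the *Ifngr2* sequence shows, so the TG-run and motif counts overlap.

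Promoter sequences from 250 bases before to 50 after a start were given by RefSeq (GRCm38) for 31 of the 38 members, 37 promoters in all. No summit of any library fell in them. AP-1 was found in the promoters of *Il6* and *Il9* (5.41% of 37, against 5.19% of 32544 promoters), the ETS-IRF string in those of *Il21* and *Il4* (5.41%, against 2.73%) and the IRF string in that of *Il4* (2.70%, against 3.45%). The PU.1 string was found in none (3.11% of all promoters).

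Scores of the member summits were moderate. PU.1 scores ran from 2.25 to 7.91 with a median of 3.92, against a list median of 4.13, and 9 of 24 were above the latter. BATF scores ran from 1.41 to 6.81 with a median of 4.21, against 4.74, and 5 of 14 were above. The best ranks were 732 of 8848 for PU.1 and 827 of 3982 for BATF. When only summits with a score above the list median were counted, PU.1 was found at 21.1% of members against 22.2% of all genes and BATF at 18.4% against 13.5%.

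**Figure D4:**
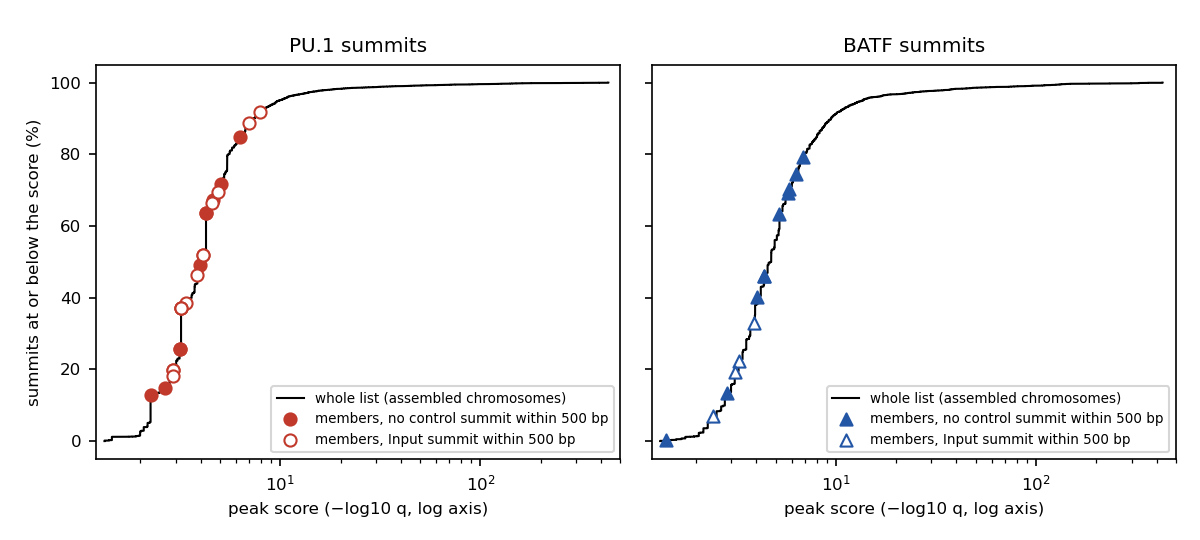
Score of each PU.1 (left) and BATF (right) summit at the members (x axis, −log10 q, log scale) on the cumulative curve of its whole list (y axis, percent of summits at or below the score). Filled symbols are away from Input and open symbols within 500 bp of it. All member summits lie below a score of 8, and the highest PU.1 symbols, 7.02 and 7.91, are open.

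The density of summits was also given per length, since gene length sets the size of a window. The merged member windows covered 4.02 Mb and those of all genes 1668 Mb. PU.1 had 24 summits, 5.97 per Mb (95% interval 3.83 to 8.89) against 3.58, and BATF 14, 3.49 per Mb (1.91 to 5.85) against 1.80. Input had 49 summits, 12.2 per Mb (9.02 to 16.1) against 8.24. The intervals for PU.1, BATF and Input lie above the value of all genes, and all 3 libraries moved in the same direction. Per 100 Input summits, the members had 49.0 PU.1 and 28.6 BATF summits, against 43.5 and 21.8 for all genes. Away from controls, the densities were 3.24 per Mb (1.72 to 5.53) against 2.58 for PU.1 and 2.49 per Mb (1.19 to 4.58) against 1.31 for BATF, whose intervals include the value of all genes. These intervals treat summits as independent, which paired or neighbouring summits are not.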

How the data were processed

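Chromatin of WT Th9 cells was immunoprecipitated with antibodies to PU.1 or BATF or with control Ig, or sequenced as Input, with 1 library each. The labels and the methods of the study differ on the number of cells and on the device (MiSeq and NextSeq). Bowtie2 and mm10 are named in the submitters' processing notes. The study's methods name Bowtie, MACS and FindPeaks. The authors deposited, per library, summits of 1 bp with MACS2 names and a score taken here as −log10 q, since no score lay below 1.30, −log10 of 0.05. The caller's options, its control library and the depth are not given in the sources used here. How reads in repeats were aligned, and which control the caller used, could change which summits are listed.

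The lists held 8947 summits for PU.1, 4060 for BATF, 25194 for Input, 226 with goat Ig and 224 with rabbit Ig. Those on the 21 assembled chromosomes were used, in the same order 8848, 3982, 24973, 159 and 161. Genes came from GENCODE M21, and sequence, with its masking, from the GRCm38.p6 reference, which has the chromosome lengths of mm10. Coordinates are 1-based. The member genes and lists were chosen with earlier results of these data known. Members with a factor summit over 500 bp from all control summits were described with every summit, and *Il9*, *Il21*, *Il4*, *Il5* and *Il13* in any case. Sequences were shown for pairs away from controls, then for the highest PU.1 score away from controls, then for a pair beside Input. The sequence at the corresponding BATF summit is not reported here. Window size, score, distance, control library, shared windows and masking were varied. Counting functions were tested on simulated data. Python 3.11.15, numpy 2.4.6, pandas 2.3.3, scipy 1.17.1 and matplotlib 3.10.9 were used.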

Additional observations from a re-analysis of the deposited data

How the results depend on the processing

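Of 58 alternative values, 39 moved by less than the interval of the reported value and 19 by more. With 20 kb flanks, PU.1 was found at 28.9% of members (25.2% of all genes) and BATF at 15.8% (15.7%), and away from controls at 21.1% (20.2%) and 13.2% (12.6%). With 100 kb flanks, BATF was found at 55.3% (38.3 to 71.4%, all genes 37.1%). With scores above the list median, PU.1 was found at 21.1% (22.2%), BATF at 18.4% (13.5%) and PU.1 away from controls at 15.8% (16.0%). In this setting a PU.1 and BATF pair was found at 0.0% (0.0 to 9.25%, all genes 5.74%), and 0.0% of BATF summits (0 of 5, list 36.6%) were near a control. With rabbit Ig as the only control, 0.0% of PU.1 summits (1.37% of the list) and 0.0% of BATF summits (3.09%) were near it. With only summits under 50% masked, chosen after seeing the data, PU.1 and BATF were each found at 5.26% of members (0.644 to 17.7%), against 14.0% and 12.9%. Away from controls these were also 5.26% (0.644 to 17.7%), against 13.2% and 12.1%. A pair was found at 0.0% (0.0 to 9.25%), against 6.76%. These intervals include the shares of all genes. Of the summits kept, 0.0% of PU.1 and 0.0% of BATF were near a control (0 of 2 each, list 9.62% and 8.84%). By construction, fewer factor summits are counted in these settings, or fewer control summits with rabbit Ig alone, and more with 100 kb flanks. When members with overlapping windows were counted once, PU.1 was found at 18 of 29 loci (62.1%, 42.3 to 79.3%). BATF was found at 12 of the 29 (41.4%, 23.5 to 61.1%). No such share was computed for all genes. No paired analysis was possible because each antibody had 1 library and no test was made. The unknown depth limits what a missing summit means.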
